A study of Mus musculus with 6 samples.

Results

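Genes of tuft cells and of eicosanoid synthesis were followed in whole mouse ileum. The set was chosen by gene symbol and has 10 members: Dclk1, Trpm5, Il25, Pou2f3, Alox5, Alox5ap, Ltc4s, Avil, Hpgds and Ptgs1. Of these, 9 were measured, among 19938 genes in all, each by 1 probe set. The table of probe set annotation lists no probe set for Ptgs1, the constitutive cyclooxygenase, which was not analysed here.

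Tuft cells are rare chemosensory cells of the intestinal epithelium. They depend on the transcription factor Pou2f3, detect luminal metabolites through a taste-like cascade that opens the cation channel Trpm5, and are the main epithelial source of the cytokine interleukin-25. They also make eicosanoids from arachidonic acid: 5-lipoxygenase (Alox5), helped by its activating protein (Alox5ap), makes leukotriene A4, leukotriene C4 synthase (Ltc4s) turns it into a cysteinyl leukotriene, and cyclooxygenase with the prostaglandin D synthase Hpgds makes prostaglandin D2. Interleukin-25 and cysteinyl leukotrienes act on innate lymphoid cells, whose interleukin-13 in turn favours the formation of tuft and goblet cells. Most of the eicosanoid genes are also used by leukocytes, and Dclk1 and Avil by neurons.

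RNA of the whole ileal segment was measured on Affymetrix Mouse Gene 1.0 ST arrays in 6 mice, with 1 array per mouse. The 3 control mice carried Villin-CreERT2, a tamoxifen-inducible Cre recombinase driven by a promoter of the intestinal epithelium, and the 3 mice labelled Gata6 KO carried it together with Gata6 alleles flanked by loxP sites, which Cre deletes; Gata6 is a GATA family transcription factor of the gut. Tamoxifen was given to both groups alike, over 5 days, when the mice were 6 to 8 weeks old; 28 days later, at 10 to 12 weeks, the ileum was collected. Whole ileum also holds muscle, nerve, stroma and immune cells, in which the Villin promoter is not active.

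Signals are log2 values per probe set, with array medians from 3.33 to 3.44. The ileal bile acid transporter Slc10a2 read 9.51 ± 0.22 in controls and 9.35 ± 0.18 in arrays labelled Gata6 KO (SD, n = 3). Fabp6, the ileal bile acid binding protein, read 10.54 ± 0.12 and 7.78 ± 0.74 and fell 6.75-fold (limma adjusted p = 0.00410), a gene named after its values were known. The signal of Gata6 was not lower in the arrays labelled Gata6 KO: it read 6.31, 6.32 and 6.50 in controls and 6.94, 6.81 and 6.86 in the others, so the groups are named below as labelled. Its limma adjusted p was 0.0162, and that call was lost without control replicate 1 (0.0501) and without each array labelled Gata6 KO (0.0573 to 0.0623). The deleted exons were not mapped to this probe set here, so it may not check the deletion. Control replicate 3 had male signals of sex-linked genes (Xist 2.31, Eif2s3y 5.30) and the other 5 arrays female ones, so values without it are given where they differ. The precision is limited by the number of arrays.

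Part of the set was higher in the ileum of mice labelled Gata6 KO. Dclk1, Alox5, Avil and Hpgds rose by 1.43-fold to 1.84-fold, while Trpm5, Il25, Pou2f3, Alox5ap and Ltc4s did not pass the test. Control values of the genes that rose, 3.26 to 3.77, lay near the array medians and were not shown to lie above background. The sizes of their changes are therefore uncertain. In numbers, 4 of 9 members were higher and none lower at a limma adjusted p under 0.05, against 4.99% of all genes higher and 3.25% lower. At an unadjusted p under 0.05, 5 members were higher and 0 lower, against 24.7% of all genes in either direction. The median log2 fold change was 0.51 over the members and -0.004 over all genes. The members were chosen with earlier results of these data known, so these comparisons with all genes describe the set and do not test it. Over all genes, the split was 995 higher and 648 lower; it became 1562 and 565 after median centring of the arrays, which called 5 members higher. In bulk tissue a change in the number of tuft cells and a change in RNA per cell cannot be told apart.

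**Figure D1:**
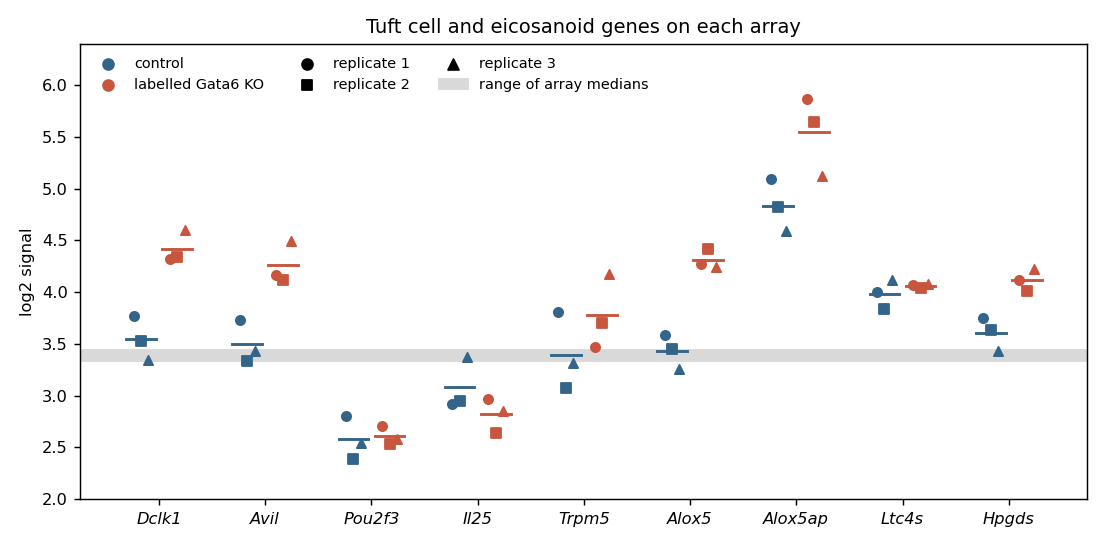
Log2 signal of the 9 measured members on each array, with controls in blue, arrays labelled Gata6 KO in red, marker shapes for the replicate number and short lines for group means; the grey band spans the array medians, 3.33 to 3.44. Dclk1, Avil, Alox5, Alox5ap and Hpgds do not overlap between the groups, whereas Pou2f3, Il25, Trpm5 and Ltc4s do.

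Among the genes of tuft cell identity, Dclk1 stood out. This microtubule-associated kinase is the most widely used tuft cell marker. It read 3.77, 3.53 and 3.34 on the control arrays and 4.32, 4.34 and 4.60 on the arrays labelled Gata6 KO. Every array labelled Gata6 KO lay above every control, with no overlap, and the log2 fold change was 0.88 (SE 0.13, 1.84-fold, limma adjusted p = 0.0101). The call was kept without each array in turn, with fold changes of 0.77 to 0.99. The annotation pairs this probe set with several Dclk1 transcripts, so long and short isoforms were not separated.

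Avil encodes advillin, an actin-binding protein of the tuft cell's apical bundle and of sensory neurons. It read 3.73, 3.33 and 3.43 in controls and 4.17, 4.12 and 4.49 in arrays labelled Gata6 KO. The groups did not overlap, with a log2 fold change of 0.77 (SE 0.14, 1.70-fold, limma adjusted p = 0.0201). That call was lost without control replicate 2 (0.0545) or 3 (0.0856) and without Gata6 KO replicate 1 (0.0607), 2 (0.0582) or 3 (0.0627).

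Trpm5, the cation channel of the chemosensory cascade, read 3.81, 3.07 and 3.31 in controls and 3.47, 3.70 and 4.18 in arrays labelled Gata6 KO. Its groups overlapped because control replicate 1 was above replicates 1 and 2 of the Gata6 KO group. The log2 fold change of 0.39 did not pass (95% interval -0.16 to 0.94, limma adjusted p = 0.358), and an increase like that of Dclk1 lies within this interval.

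Pou2f3, the factor on which tuft cells depend, read 2.80, 2.39 and 2.54 in controls and 2.71, 2.53 and 2.58 in arrays labelled Gata6 KO. Il25 read 2.92, 2.95 and 3.37 against 2.97, 2.64 and 2.85. Both genes lay below the array median on all 6 arrays and their groups overlapped. The log2 fold changes were 0.03 (95% interval -0.24 to 0.30) for Pou2f3 and -0.26 (-0.60 to 0.08) for Il25, with limma adjusted p of 0.909 and 0.321. At signals this low, which were not shown to lie above background, a change in the transcript may not be detectable.

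In the leukotriene branch, the lipoxygenase itself rose. Alox5 read 3.59, 3.45 and 3.26 in controls and 4.27, 4.42 and 4.24 in arrays labelled Gata6 KO. The groups were well apart, and the log2 fold change was 0.87 (SE 0.11, 1.83-fold, limma adjusted p = 0.00431). The call was kept without each array in turn, with adjusted p of 0.00817 to 0.0284.

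Alox5ap, whose product presents arachidonic acid to the lipoxygenase, read 5.09, 4.82 and 4.59 in controls and 5.87, 5.65 and 5.12 in arrays labelled Gata6 KO. The lowest array labelled Gata6 KO, replicate 3, lay just above the highest control, replicate 1. The log2 fold change of 0.71 (95% interval 0.23 to 1.20) did not pass, with a limma adjusted p of 0.0867. It passed without Gata6 KO replicate 3 (0.0402) and with each array centred on its median (0.0353). Counted with the 4 called genes, 5 of 9 members did not overlap between groups and were higher, against 16.8% of all genes, and 0 did so and were lower, against 12.6%.

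Ltc4s, the synthase of leukotriene C4, read 4.0, 3.84 and 4.12 in controls and 4.07, 4.04 and 4.08 in arrays labelled Gata6 KO. The groups overlapped fully, with a log2 fold change of 0.07 (limma adjusted p = 0.661). Its 95% interval, -0.14 to 0.29, lies below that of Alox5, 0.63 to 1.12; the difference between the genes was not tested.

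The sequences before the start sites of these leukotriene enzymes are shown because Alox5 rose and Ltc4s did not pass. Each line gives the 250 bases upstream of a RefSeq start (build GRCm38.p6), 5′ to 3′ on the gene's strand. Alox5 lies at chr6:116461179-116461428 and Ltc4s at chr11:50238533-50238782, both on the minus strand. Capitals mark a match to a GATA motif.
Alox5: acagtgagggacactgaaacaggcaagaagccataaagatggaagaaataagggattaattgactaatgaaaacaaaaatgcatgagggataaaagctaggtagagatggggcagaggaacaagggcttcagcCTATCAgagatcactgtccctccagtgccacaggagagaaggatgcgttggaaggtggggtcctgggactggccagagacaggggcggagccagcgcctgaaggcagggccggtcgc
Ltc4s: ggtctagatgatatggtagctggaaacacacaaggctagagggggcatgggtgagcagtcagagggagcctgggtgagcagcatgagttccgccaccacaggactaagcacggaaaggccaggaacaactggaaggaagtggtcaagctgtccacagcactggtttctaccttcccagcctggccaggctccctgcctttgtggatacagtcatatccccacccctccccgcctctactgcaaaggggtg
The GATA motif was searched as AGATAA, also with T as its first base, G as its last, or both. The octamer bound by POU factors was searched as ATGCAAAT, and each motif on both strands; the patterns do not overlap in these windows. The Alox5 window holds 1 GATA match, on the opposite strand, from base -117 to base -112 before the start. The Ltc4s window holds neither motif.

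RefSeq windows were found for 7 of 10 members, 8 windows in all, since Dclk1 has 2 starts. Among them 3 hold a GATA match: Alox5, Avil and the downstream start of Dclk1. Over all 32851 windows of this length, 26.5% hold one. The octamer occurs in 1 member window, that of Hpgds, and in 1.6% of all windows. Only 3 windows, those of Alox5, Trpm5 and Ltc4s, lie outside the annotated span of their gene. A match is a description of these letters, not a binding site.

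In the prostaglandin branch, Hpgds read 3.75, 3.63 and 3.43 in controls and 4.12, 4.01 and 4.22 in arrays labelled Gata6 KO. Its groups did not overlap, and it rose by a log2 fold change of 0.51 (SE 0.11, 1.43-fold, limma adjusted p = 0.0302). The call was lost without control replicate 2 (0.0623) or 3 (0.0866) and without Gata6 KO replicate 1 (0.0923), 2 (0.0736) or 3 (0.105).

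The arrays of a group were not ranked alike by all members. Control replicate 1 was the highest control for 7 of 9 members and control replicate 3 the lowest for 4. Gata6 KO replicate 3 was highest of its group for 5 members, among them Dclk1, Avil, Trpm5 and Hpgds, and Gata6 KO replicate 1 for 3, among them Alox5ap.

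Other genes of the taste-like cascade moved in both directions, and most did not pass. Of 19 measured, 2 rose and 1 fell, against 4.99% of all genes higher and 3.25% lower. At an unadjusted p under 0.05, 6 were higher and 4 lower, against 24.7% of all genes in either direction. The list's median log2 fold change was 0.05. Rgs13, a regulator of G protein signalling that marks tuft cells, read 2.53, 1.55 and 1.61 in controls and 3.17, 3.53 and 4.25 in arrays labelled Gata6 KO. It rose by 1.76 (SE 0.34, limma adjusted p = 0.0243). The size is uncertain because only 2 of its 6 values lay above their array's median. The call was lost without control replicate 2 (0.0686) or 3 (0.1) and without Gata6 KO replicate 2 (0.0917) or 3 (0.0673).

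Atp2a3, a calcium pump of the endoplasmic reticulum, read 7.32 to 7.45 in controls and 8.25 to 8.40 in arrays labelled Gata6 KO. It rose by 0.92 (SE 0.08, limma adjusted p = 0.00136) and kept the call without each array. Itpr2, a calcium release channel of the same membrane, fell by 0.71 (SE 0.13, limma adjusted p = 0.0197). That call was lost without control replicate 1 (0.0671), 2 (0.0518) or 3 (0.0612) and without Gata6 KO replicate 1 (0.0562) or 3 (0.0748).

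The cascade's G protein subunit Gnat3 and the succinate receptor Sucnr1 had log2 fold changes of 0.60 and 0.52, with limma adjusted p of 0.126 and 0.184. Both lay below the median on every array, and Sucnr1 passed without Gata6 KO replicate 1 (0.0490). Trpm4, a channel related to Trpm5, had a log2 fold change of 0.45 (limma adjusted p = 0.0538). These 3 genes were named after their values were seen.

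Of 25 other tuft cell genes, 1 rose and none fell, against 4.99% of all genes higher and 3.25% lower. At an unadjusted p under 0.05, 5 were higher and 4 lower, against 24.7% of all genes in either direction. The gene that passed, the tyrosine phosphatase Ptpn18, rose by 0.62 (SE 0.10, limma adjusted p = 0.0145). The call was lost without control replicate 3 (0.0527) and without Gata6 KO replicate 1 (0.0535), 2 (0.0549) or 3 (0.0624). The median of this list was 0.09. The adaptor gene Sh2d6 had a log2 fold change of 0.30 (limma adjusted p = 0.380), which passed without control replicate 1 (0.0410). The tuft cell transcription factor Gfi1b had one of -0.27 (0.0870) and the acetylcholine-making enzyme Chat one of -0.22 (0.295). The last 3 genes were named after their values were seen.

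**Figure D2:**
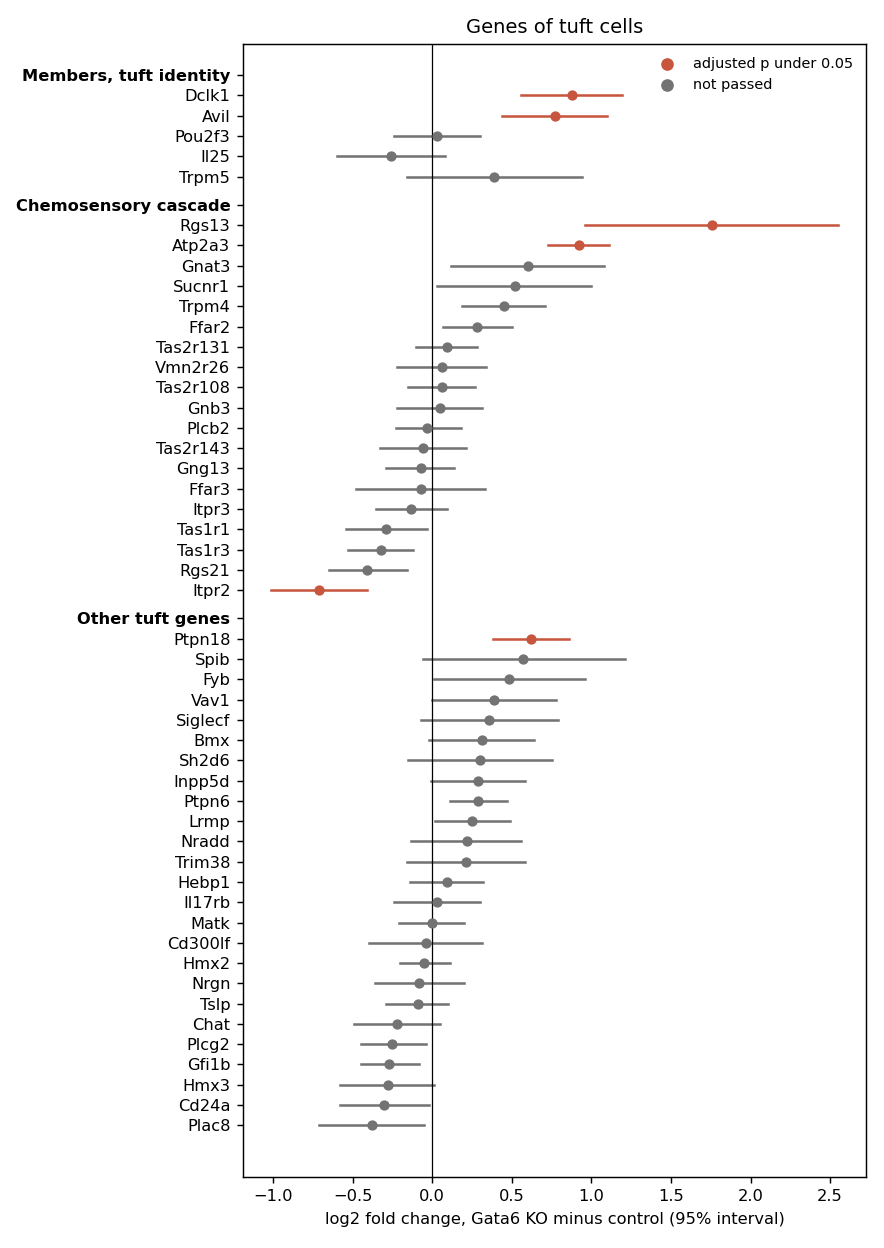
Log2 fold change, Gata6 KO minus control, with its 95% interval (n = 3 arrays per group) for the identity members, the chemosensory cascade and other tuft cell genes; red marks an adjusted p under 0.05. Rgs13, Atp2a3, Dclk1, Avil and Ptpn18 lie to the right of 0 and passed, Itpr2 lies to the left and passed, and the intervals of Pou2f3 and Il25 cover 0.

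Genes for the release of arachidonic acid and the handling of leukotrienes changed in both directions. Of 19 measured genes, 4 rose and 4 fell, against 4.99% of all genes higher and 3.25% lower. At an unadjusted p under 0.05, 5 were higher and 4 lower, against 24.7% of all genes in either direction. The median log2 fold change was 0.05. Cytosolic phospholipase A2 alpha (Pla2g4a), which frees arachidonic acid from membranes, read 6.13, 6.18 and 6.07 in controls and 6.84, 6.85 and 6.76 in arrays labelled Gata6 KO. It rose by 0.69 (SE 0.07, limma adjusted p = 0.00265). The related Pla2g4c read 5.32, 4.77 and 4.51 against 6.11, 6.23 and 6.31. It rose by 1.35 (SE 0.20, limma adjusted p = 0.00872).

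Secreted phospholipases moved apart. Pla2g2a, a Paneth cell product, read 6.42 to 6.84 in controls and 3.62 to 4.51 in arrays labelled Gata6 KO, and Pla2g5 read 4.86 to 5.32 and 3.18 to 3.54. They fell 6.27-fold and 3.08-fold (limma adjusted p = 0.00130 and 0.00165). Pla2g10 rose by 0.70 (SE 0.12, limma adjusted p = 0.0160), a call lost without control replicate 1 (0.0505) and without Gata6 KO replicate 2 (0.0772) or 3 (0.0624). The calls of the 4 preceding phospholipase genes were kept without each array in turn.

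Downstream of Alox5, the hydrolase Lta4h, which turns leukotriene A4 into leukotriene B4, read 6.97, 7.07 and 6.99 in controls and 6.52, 6.46 and 6.55 in arrays labelled Gata6 KO. It fell by 0.50 (SE 0.07, limma adjusted p = 0.00900) and kept the call without each array. The exporter of leukotriene C4, Abcc1, rose by 0.70 (SE 0.12, limma adjusted p = 0.0176), and the dipeptidase Dpep1, which turns leukotriene D4 into leukotriene E4, fell by 1.00 (SE 0.21, limma adjusted p = 0.0307). Abcc1 lost the call without control replicate 2 (0.0517) or 3 (0.0767) and without Gata6 KO replicate 2 (0.0652) or 3 (0.0674). Dpep1 lost it without control replicate 2 (0.0797) or 3 (0.118) and without Gata6 KO replicate 1 (0.0878) or 2 (0.123). Pla2g10, Lta4h, Abcc1 and Dpep1 were named after their values were seen.

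In the prostaglandin pathway 4 of 22 genes rose and none fell, against 4.99% of all genes higher and 3.25% lower. At an unadjusted p under 0.05, 7 were higher and 1 lower, against 24.7% of all genes in either direction. The median log2 fold change was 0.12. Ptger3, a receptor of prostaglandin E2, read 4.24, 4.08 and 3.63 in controls and 5.29, 5.48 and 5.45 in arrays labelled Gata6 KO. It rose by 1.42 (SE 0.16, 2.68-fold, limma adjusted p = 0.00315) and kept the call without each array.

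The other 3 genes that rose clear or carry prostaglandins that have already been made. Hpgd, the dehydrogenase that inactivates prostaglandin E2, read 8.17, 8.69 and 8.08 in controls and 9.02, 9.36 and 9.27 in arrays labelled Gata6 KO. It rose by 0.90 (SE 0.17, limma adjusted p = 0.0240). The carbonyl reductase Cbr1 rose by 0.68 (SE 0.16, limma adjusted p = 0.0430) and the prostaglandin transporter Slco2a1 by 0.46 (SE 0.10, limma adjusted p = 0.0328).

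These 3 calls were lost in most fits that leave out 1 array. Slco2a1 lost its call without each array in turn (adjusted p 0.0557 to 0.115). Hpgd lost it without control replicate 1 (0.0807) or 3 (0.0875) and without Gata6 KO replicate 1 (0.0534), 2 (0.104) or 3 (0.0851). Cbr1 lost it without control replicate 1 (0.0893), 2 (0.0935) or 3 (0.143) and without Gata6 KO replicate 2 (0.158) or 3 (0.126). Of the genes that make prostaglandins, the inducible cyclooxygenase Ptgs2 had a log2 fold change of 0.29 (95% interval -0.07 to 0.64, limma adjusted p = 0.289) and the brain-type prostaglandin D synthase Ptgds one of 0.05 (0.731). Both were named after their values were seen.

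**Figure D3:**
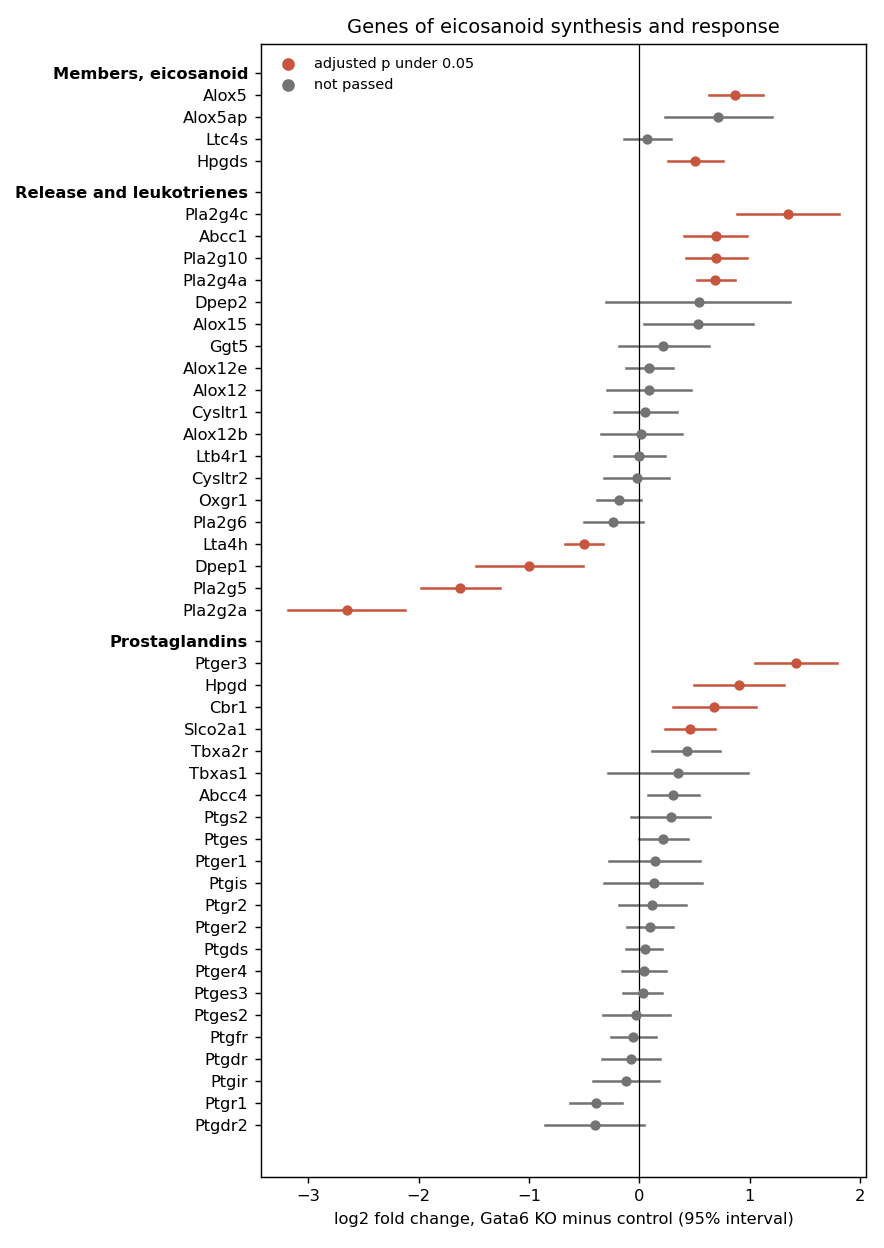
Log2 fold change, Gata6 KO minus control, with its 95% interval (n = 3 arrays per group) for the eicosanoid members, the release and leukotriene genes and the prostaglandin genes; red marks an adjusted p under 0.05. The 4 genes to the left of 0 that passed are all in the release and leukotriene list, with Pla2g2a the lowest at -2.65, and Ptger3 is the highest at 1.42.

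Genes of the immune circuit that tuft cells feed into were read next. Of 16 measured genes of type 2 immunity, 1 rose and none fell, against 4.99% of all genes higher and 3.25% lower. At an unadjusted p under 0.05, 3 were higher and 2 lower, against 24.7% of all genes in either direction. The list's median was -0.03, and 6 of its genes lay below the median on every array. The gene that rose was Retnlb, a secreted product of goblet cells, by 3.39 (limma adjusted p = 0.00470). Il13 had a log2 fold change of -0.37 at signals below the median (limma adjusted p = 0.128). Il17rb, the receptor chain for interleukin-25, had one of 0.03 (limma adjusted p = 0.896), with no set direction, since its sign changed with the array left out. Il13 and Il17rb were named after their values were seen.

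Several members are also made outside the epithelium, so markers of other cells were read on the same arrays. Summed levels below are the log2 of the markers' summed signals. Granulocyte markers were mostly dim. All 10 mast cell markers except Hdc, all 5 eosinophil markers and all 8 neutrophil markers lay below the median on every array. No mast cell or eosinophil marker passed, against 4.99% of all genes called higher and 3.25% lower. At an unadjusted p under 0.05 the counts were 0 higher and 1 lower of 10 for mast cells. For eosinophils they were 0 higher and 0 lower of 5, against 24.7% of all genes in either direction. Their summed levels were 5.46 to 5.67 (mast cells) and 4.10 to 4.27 (eosinophils) in controls and 5.37 to 5.66 and 4.09 to 4.16 in arrays labelled Gata6 KO. The neutrophil sum was 4.87 to 5.18 and 5.00 to 5.31, and 2 of its 8 markers, Ly6g and Retnlg, rose by 0.48 and 0.38 at signals of 1.53 to 2.40. Ly6g lost its call without control replicate 3 (0.0680) and without Gata6 KO replicate 1 (0.0530), 2 (0.0607) or 3 (0.0701), and Retnlg without each array in turn (0.0766 to 0.130).

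Macrophage markers summed to 9.89 to 10.43 in controls and 9.96 to 10.88 in arrays labelled Gata6 KO, with none at low signal on all arrays. Of 10, 1 rose, against 4.99% of all genes called higher. This was Cd14, which rose by 1.23 (SE 0.23, limma adjusted p = 0.0210). Its call was lost without control replicate 2 (0.0625) or 3 (0.0724) and without Gata6 KO replicate 1 (0.0820) or 2 (0.0939). The median of the list was 0.27. The part of macrophages in the values of the eicosanoid members was not tested. With the mean of these markers as a covariate, the fold changes were 0.78 for Alox5, 0.42 for Alox5ap and 0.47 for Hpgds, and 2 members, Dclk1 and Alox5, remained called.

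The sum of the enteric neuron markers was 7.17 to 7.28 in controls and 7.47 to 7.67 in arrays labelled Gata6 KO. Of 11 markers, 2 rose, 0 fell and 9 did not pass, against 4.99% of all genes higher and 3.25% lower. The counts at an unadjusted p under 0.05 were 5 higher and 0 lower, against 24.7% of all genes in either direction. The list's median log2 fold change was 0.20, and 5 of its genes lay below the median on every array. Stmn2 rose by 0.74 (SE 0.11, limma adjusted p = 0.00855), a call kept without each array. Prph rose by 0.41 (limma adjusted p = 0.0256), a call lost without control replicate 2 (0.0578) or 3 (0.0867) and without Gata6 KO replicate 1 (0.0611), 2 (0.0795) or 3 (0.0891). With the mean of the neuron markers as a covariate, the fold changes were 0.26 for Dclk1, 0.22 for Avil, 0.10 for Hpgds and 0.83 for Alox5, and no gene of the 19938 passed. At an unadjusted p under 0.05, 2 members were higher in that fit. Because the mean of those markers separates the groups without overlap, neuron content and group cannot be told apart there.

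Some markers of the muscle wall and stroma also rose, against 4.99% of all genes called higher and 3.25% lower. Of 3 markers of interstitial cells of Cajal, the pacemaker cells of gut muscle, Ano1 and Kit rose by 0.84 and 0.67 (limma adjusted p = 0.00378 and 0.0109). The remaining marker, Etv1, had a log2 fold change of 0.19 with overlapping groups (limma adjusted p = 0.641). Etv1 was named after its values were seen. Kit lost its call without Gata6 KO replicate 2 (0.0586). The sum was 6.54 to 6.82 in controls and 7.10 to 7.39 in arrays labelled Gata6 KO. The median log2 fold change of these 3 markers was 0.67, the value of Kit itself, against 0.51 for the tuft cell members. Of 9 smooth muscle markers 1, Tagln, rose, by 0.46 (limma adjusted p = 0.0388), and the median was 0.34, with sums of 11.64 to 11.83 and 11.87 to 12.20. Of 7 fibroblast markers 1, Pdpn, rose, by 0.94 (limma adjusted p = 0.0446), and the median was 0.43, with sums of 10.66 to 11.10 and 11.18 to 11.48. At an unadjusted p under 0.05, 7 of 9 smooth muscle and 5 of 7 fibroblast markers were higher and none lower. The share of all genes was 24.7% in either direction. Tagln lost its call in 4 of 6 fits without an array (control replicates 1 and 3, Gata6 KO replicates 2 and 3; 0.110 to 0.142) and Pdpn in 5 (all but control replicate 1; 0.0719 to 0.159). With the smooth muscle mean as a covariate, Dclk1 and Alox5 had fold changes of 0.81 and 0.85 and no member passed, while 5 were higher at an unadjusted p under 0.05. The smooth muscle mean also separates the groups without overlap (7.33 to 7.52 in controls, 7.54 to 7.88 in arrays labelled Gata6 KO), so muscle content and group cannot be told apart in that fit either.

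Lymphoid, dendritic, glial and endothelial markers showed almost no calls. Of 6 T cell, 6 B cell, 6 plasma cell, 5 glial and 7 endothelial markers none passed the limma test. Over all genes, 4.99% were called higher and 3.25% lower. At an unadjusted p under 0.05, 2 of these markers were higher and 1 lower, against 24.7% of all genes in either direction. Of 6 dendritic cell markers 1, Siglech, fell by 0.43, at signals of 1.99 to 2.55, below the median on every array. Its call was lost without control replicate 1 (0.0639) or 3 (0.0762) and without Gata6 KO replicate 2 (0.0912) or 3 (0.0826). Within the epithelium, 1 of 9 pan-epithelial markers, Krt19, rose by 0.33 and 1, Vil1, fell by 0.41 (limma adjusted p = 0.0394 and 0.0225), and their sum was 13.21 to 13.33 in controls and 13.27 to 13.42 in arrays labelled Gata6 KO. Krt19 lost its call without each array in turn, and Vil1 without control replicate 3 and without each array labelled Gata6 KO. In other epithelial lineages, 6 of 9 enterocyte, 6 of 7 Paneth cell and 6 of 10 enteroendocrine markers fell, and of 7 goblet cell markers 3 rose (Muc2, Spdef and Retnlb) and 1 fell (Zg16), and Muc2, Spdef and Zg16 were named after their values were seen. Muc2 lost its call in 5 fits without an array (all but Gata6 KO replicate 1; 0.0557 to 0.0952), Zg16 without control replicate 1, 2 or 3 and Gata6 KO replicate 2 (0.0549 to 0.0879), and Spdef without control replicate 3 (0.0524) and Gata6 KO replicate 1 (0.0512).

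**Figure D4:**
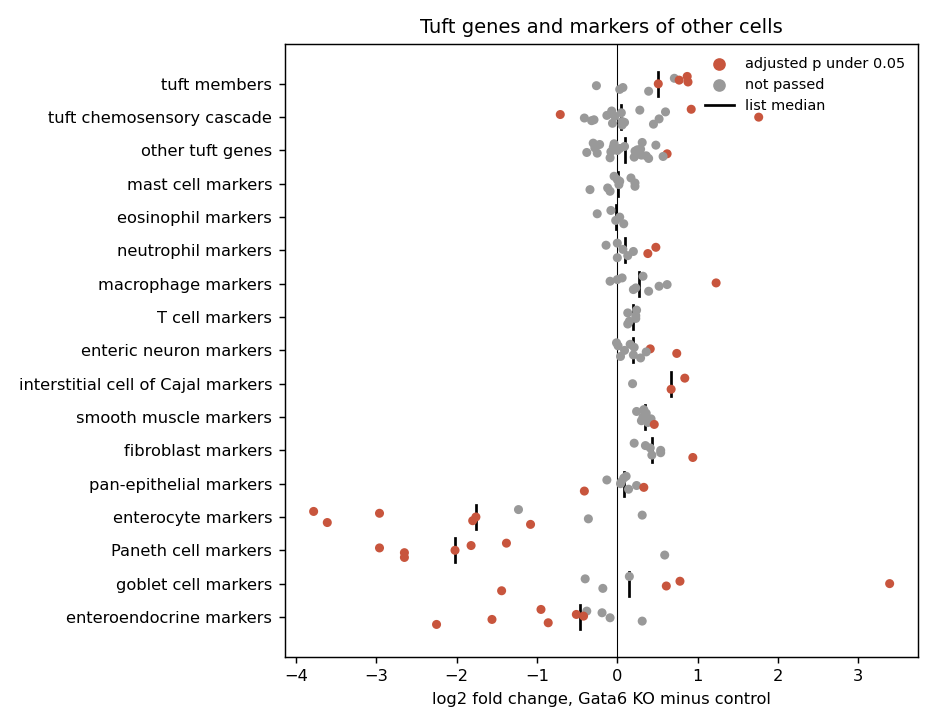
Log2 fold change, Gata6 KO minus control, of each gene of the tuft cell lists and of lists of other cell types, 1 point per gene; red marks an adjusted p under 0.05 and the black bar the list median. The median is 0.51 for the tuft cell members and 0.67 for the 3 markers of interstitial cells of Cajal. It is 0.43 for fibroblasts, 0.34 for smooth muscle, 0.27 for macrophages and 0.20 for enteric neurons, and it lies at -1.76 for enterocytes and -2.02 for Paneth cells.

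The 4 called members differed in how firmly they held over the processing settings. Dclk1 and Alox5 were called without each array in turn and in most other settings. Avil and Hpgds were called with all 6 arrays but in only 1 of the 6 fits that leave out an array, that without control replicate 1. Alox5ap crossed the threshold in 6 of 20 settings.

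**Figure D5:**
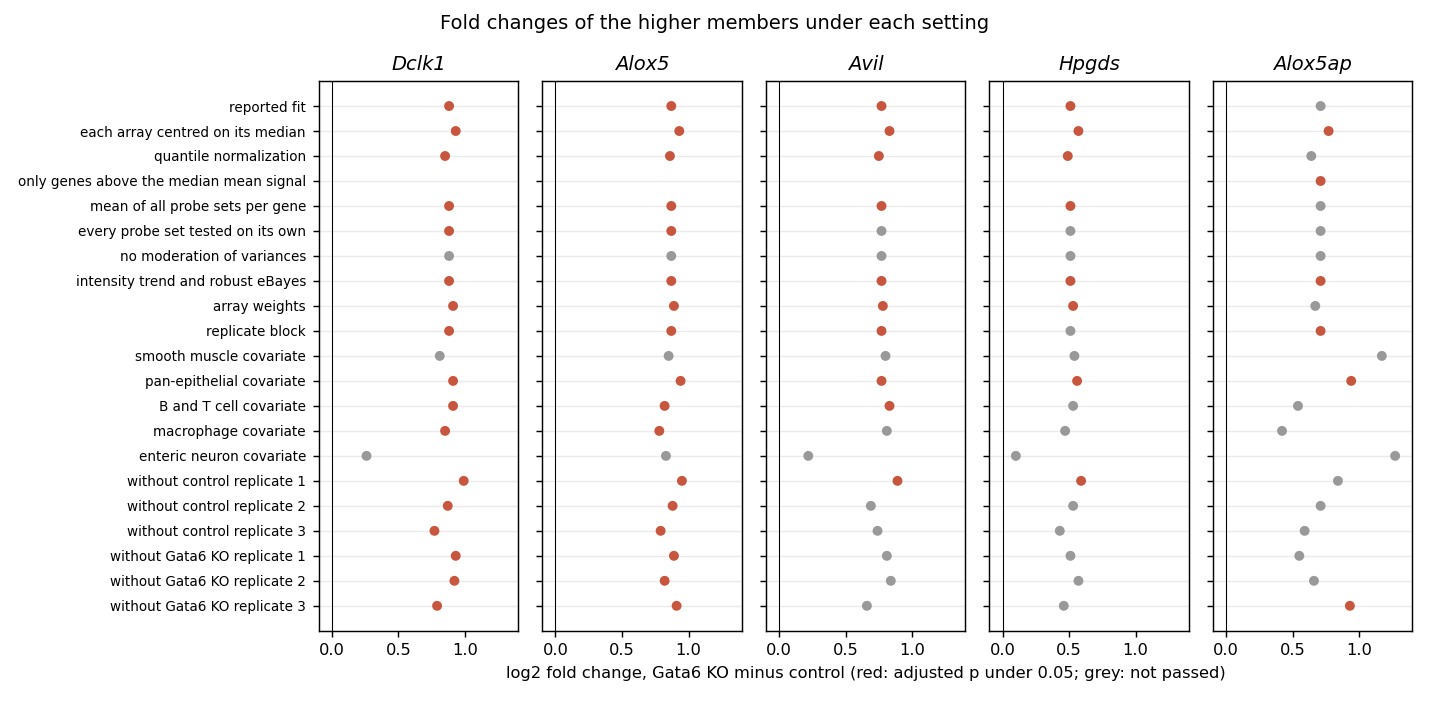
Log2 fold change of Dclk1, Alox5, Avil, Hpgds and Alox5ap, 1 panel each, in the reported fit and under each other setting; red marks an adjusted p under 0.05, grey a value that did not pass, and the vertical line 0. Only Alox5ap was bright enough to be tested among genes above the median signal, and the values of Dclk1, Avil and Hpgds are lowest with the enteric neuron covariate, at 0.26, 0.22 and 0.10.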

How the data were processed

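Total RNA of whole ileum from 6 mice, 3 per group as the sample titles state, was hybridised to Affymetrix Mouse Gene 1.0 ST arrays. The values the authors deposited are log2 signals, 1 per probe set and array. The submitters' processing notes name Affymetrix Expression Console. No version, background correction or normalization is given in the sources used here. That the scale is log2 follows from the range of the values.

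Of 35557 probe sets, 21789 have 1 gene symbol, 1621 several and 12147 none in the annotation used. For each of 19938 genes the brightest probe set by its mean over all arrays was used. The test was that of limma 3.58.1, run in R 4.3.3 (lmFit and eBayes, Gata6 KO minus control, two-sided), with Benjamini-Hochberg adjustment over all genes and a threshold of 0.05. Intervals are 95% intervals of the moderated fit. Dim genes were kept; "below the median" means below the median of all probe sets of that array. The fit was tested on simulated data. The mice are separate animals; sex is not given in the labels and was not modelled.

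The members and lists were chosen with earlier results of these data known. Named were the members, up to 4 called genes with the smallest p per pathway list and up to 2 per marker list; other genes are said to be named after their values were seen. Alternatives covered scaling, a filter on dim genes, choice of probe set, moderation, array weights, a replicate block, marker covariates and leaving out each array. Promoter windows are RefSeq sequence of GRCm38.p6, the 250 bases before a start; the windows of Il25, Pou2f3 and Alox5ap were not used here. Figures were drawn with matplotlib 3.10.9.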

Additional observations from a re-analysis of the deposited data

How the results depend on the processing

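With 4 members called higher in the reported fit, the count was 1 among genes above the median mean signal, where Alox5ap was the only member left to test. It was 2 with every probe set tested on its own, 0 without moderation of variances (4 at an unadjusted p under 0.05), 0 with the smooth muscle covariate, 2 with the macrophage covariate and 0 with the enteric neuron covariate; the last 2 covariates were chosen after seeing the data. Leaving out each array gave 2 to 4. No setting called a member lower. Over all genes, higher and lower calls numbered 168 and 106 without moderation, 46 and 50 with the smooth muscle covariate, 0 and 0 with the neuron covariate, 419 and 298 with every probe set, 478 and 372 with the B and T cell covariate, 424 and 303 with the macrophage covariate, and 320 to 806 and 277 to 597 without 1 array. Quantile normalization gave 841 and 773, and the filter on dim genes 1326 and 677.

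Log2 fold changes that changed sign, none of them called, were Trpm5 at -0.50, Gnat3 at -0.37 and Sh2d6 at -0.18 with the neuron covariate, Sucnr1 at -0.10 with the smooth muscle covariate, Pou2f3 at -0.02 with the macrophage covariate and -0.06 to 0.14 without 1 array, and Il17rb at -0.02 with the B and T cell covariate and -0.04 to 0.12 without 1 array. The cause was not tested. The signals of Pou2f3, Il25, Gnat3, Sucnr1 and Il13 lay below the array medians, which limits what was detectable for them.

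Deviations of same-numbered arrays correlated at 0.043, -0.040 and 0.153, so the numbers were not taken to pair the mice. With the replicate number as a block, 4 members were called higher (Dclk1, Alox5, Alox5ap and Avil) and 766 and 475 genes higher and lower.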

Other observations

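The order of the arrays within each group was set against that of the listed genes for 2 members, Alox5ap and Dclk1. These orders were looked at after the values were seen and carry no test. Alox5ap fell in the order replicate 1, 2, 3 in both groups. The same order was seen for 6 of 10 macrophage markers (Csf1r, Cd68, Cd14, C1qb, C1qc and Mrc1), for 2 of 25 other tuft cell genes (Inpp5d and Vav1), for 2 of 22 prostaglandin genes (Ptgis and Tbxas1), for 2 of 16 type 2 immune genes (Il33 and Il4ra), for 1 gene each of 7 further lists, for none of the other 8 members and for 3.81% of all other genes. Dclk1 had the order 1, 2, 3 in controls and 3, 2, 1 in arrays labelled Gata6 KO. That order was shared by 3 of 11 enteric neuron markers (Elavl4, Snap25 and Stmn2), by 2 of 19 genes of the chemosensory cascade (Gnb3 and Atp2a3), by 1 of 25 other tuft cell genes (Siglecf), by 1 of 5 glial markers (Foxd3), by Pla2g4c, Cbr1 and the endothelial marker Emcn, by none of the other 8 members and by 2.33% of all other genes. Genes of 1 array share that array's labelling and scan, so the shared orders are not independent observations.

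Alox15, a lipoxygenase of macrophages and epithelia, had a log2 fold change of 0.53 (limma adjusted p = 0.178), which passed without Gata6 KO replicate 3 (0.0406). It read 2.97, 2.94 and 2.99 in controls and 3.95, 3.53 and 3.02 in arrays labelled Gata6 KO. Only 2 of its 6 values lay above their array's median, and it was named after its values were seen.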
